A study of Mus musculus with 12 samples.

Results

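The genes described here are 9 transporters of organic anions and cations, Slc22a2, Slc22a4, Slc22a5, Slc22a6, Slc22a8, Slc22a12, Slc47a1, Slco4c1 and Abcc2. They were taken by symbol from the 57490 genes of the deposited count table, and all 9 were among the 17431 genes with enough counts to be tested. The study sequenced polyA RNA from the kidneys of 12 male mice aged 13 weeks, 4 in each of 3 groups. Ctrl mice were db/+ heterozygotes on the BKS background, called db/m in the labels, with a low random blood glucose. Model mice were diabetic db/db animals (BKS.Cg-Dock7m +/+ Leprdb/JNju), which lack the long form of the leptin receptor and had been selected for a high random blood glucose. YHY mice were db/db animals given a water extract of Yiqi Huoxue Yangyin Decoction, an herbal mixture, at 6.24 g/mL per the labels; the dose group of the study that was sequenced is not named. All mice were gavaged daily for 4 weeks, with 50 µL for each 10 g that they weighed, and Ctrl and Model mice received purified water. Genotype, diabetes and the selection on glucose go together in the comparison of Model with Ctrl and cannot be told apart there.

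Total counts per library ran from 29632718 to 33276634 in Ctrl, from 24415658 to 29784346 in Model and from 25149764 to 29698342 in YHY. Transcripts of the mitochondrial genome took 18.6%, 22.7%, 18.4% and 18.5% of the counts in Ctrl 1 to 4. Their share was 41.2%, 58.9%, 55.3% and 53.4% in Model 1 to 4 and 53.8%, 64.6%, 54.6% and 54.2% in YHY 1 to 4. Every db/db library was above every Ctrl library in this share, so fewer counts were left there for nuclear genes. The 9 transporters together took 0.292% to 0.359% of all counts in Ctrl, 0.132% to 0.240% in Model and 0.108% to 0.206% in YHY. As a share of the counts from nuclear genes they took 0.358% to 0.464%, 0.283% to 0.408% and 0.233% to 0.450%, ranges that overlap. Levels are therefore given in CPM (counts scaled to a library of a fixed size, as edgeR computes them) after TMM scaling, which sets each library against the bulk of its genes; the scaling factors ran from 0.720 to 1.35.

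The labels name whole kidney tissue and the study design names renal cortex. Markers of the proximal tubule, the segment in which these transporters work, were above 0 in every library. Their most abundant gene, Kap, averaged 42444 CPM over the Ctrl mice, 5090 CPM over the Model mice and 4022 CPM over the YHY mice. The inner medulla markers Slc14a2 and Aqp4 were also present in every group, with means of 84.5 and 152 CPM in Ctrl, 42.0 and 28.1 CPM in Model and 82.0 and 65.2 CPM in YHY. Lepr, the gene of the db allele, stood between 2.78 and 16.6 CPM with overlapping groups. The db allele alters splicing, so counts per gene do not check the genotype.

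Proximal tubule cells clear drugs, toxins and metabolites from the blood in a pair of steps, uptake across the basolateral membrane and efflux across the brush border into urine. Slc22a6 (OAT1) and Slc22a8 (OAT3) take up organic anions in exchange for dicarboxylates, Slco4c1 takes up larger anions and cardiac glycosides, and Slc22a2 (OCT2) takes up organic cations that Slc47a1 (MATE1) passes into urine in exchange for protons. On the brush border, Slc22a12 (URAT1) takes urate back from the urine, Slc22a5 (OCTN2) takes back carnitine with sodium, Slc22a4 (OCTN1) carries ergothioneine and related zwitterions, and the ATP-driven pump Abcc2 (MRP2) exports conjugated anions.

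Levels differed widely between the transporters when set per kilobase of gene length. In Ctrl mice Slc22a12 came first, at 340 ± 40.6 CPM per kilobase (mean ± SD, n = 4). It was followed by Slc22a6 at 189 ± 36.2, Slc22a2 at 129 ± 29.1, Slc47a1 at 123 ± 33.1 and Slc22a8 at 54.3 ± 9.97 CPM per kilobase. Slc22a5 stood at 34.3 ± 6.26, Abcc2 at 15.4 ± 2.17, Slc22a4 at 9.52 ± 1.69 and Slco4c1 at 6.53 ± 1.87 CPM per kilobase. The ranges of neighbouring genes overlapped for Slc22a6 and Slc22a2, for Slc22a2 and Slc47a1, and for Slc22a4 and Slco4c1. In Model mice the first places went to Slc22a12 at 141 ± 16.5, Slc22a8 at 119 ± 48.1 and Slc22a6 at 114 ± 26.4 CPM per kilobase, levels that overlapped. In YHY mice Slc47a1 came first at 130 ± 43.8 CPM per kilobase, before Slc22a12 at 95.6 ± 39.3 and Slc22a8 at 85.5 ± 47.1, again with overlap. Slco4c1 was last in all 3 groups.

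**Figure D1:**
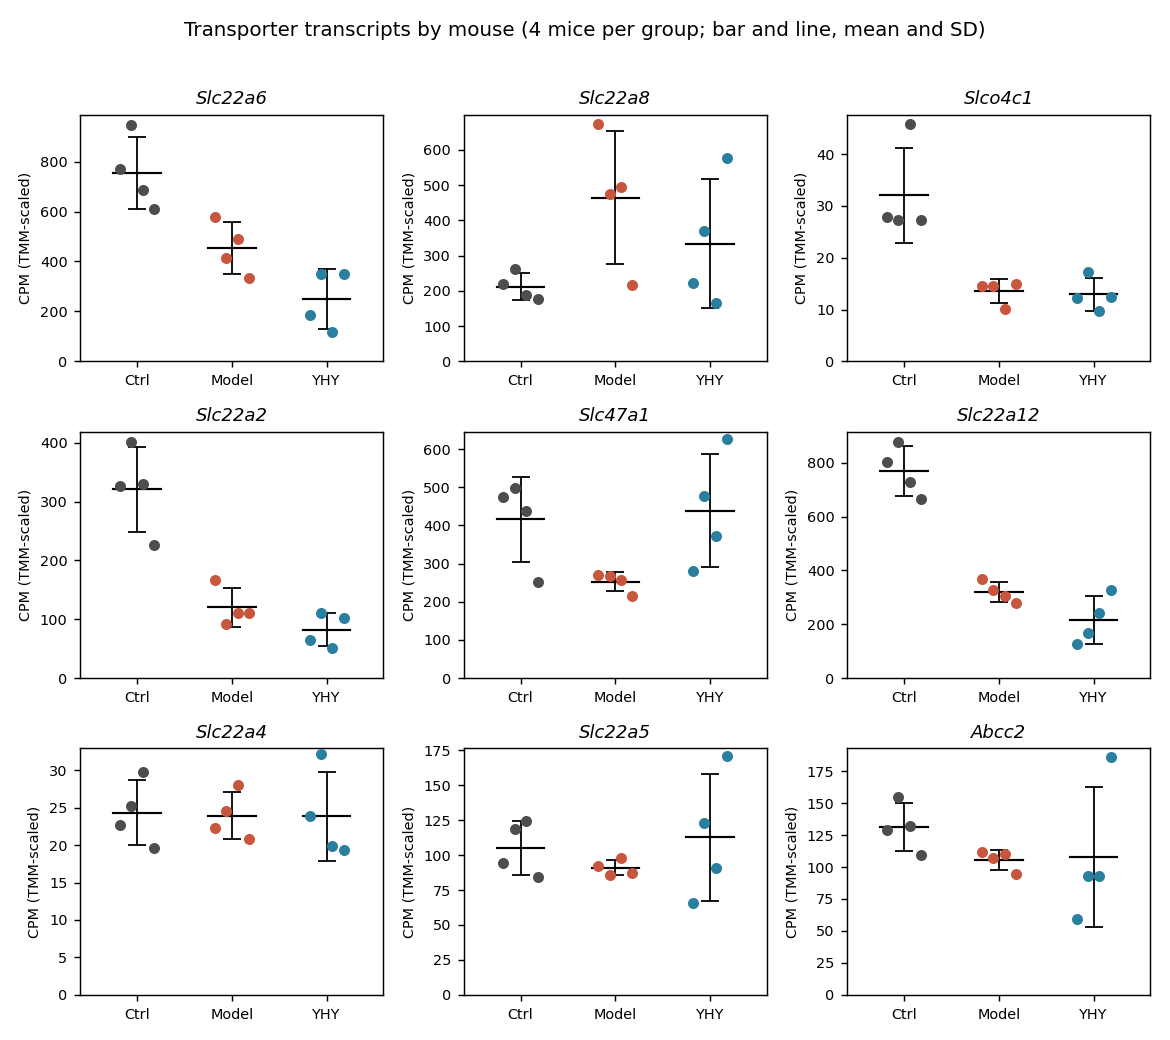
Level of each transporter transcript (vertical axis, CPM after TMM scaling) in each mouse of the Ctrl, Model and YHY groups. Each point is a mouse, and the lines give the mean and SD of 4 mice; for Slc22a2, Slc22a6, Slc22a12 and Slco4c1 all Model and YHY points lie below all Ctrl points.

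Members of this family sit side by side in the genome. In the deposited annotation Slc22a8 and Slc22a6 lie on the same strand of chromosome 19, 6203 bases apart with no gene between them, and Slc22a4 and Slc22a5 share a strand of chromosome 11 with 91462 bases and 7 annotated genes between them. Because the anion exchangers are neighbours and moved apart in the Model mice, their promoters are shown. RefSeq (GRCm38.p6) gives promoter entries for 8 of the 9 members, each with 250 bases before the start site and 50 after it; Slc47a1 has none. The sequences below run 5′ to 3′ on the strand of the gene, from chr19:8617746-8618045 for Slc22a6 and from chr19:8592932-8593231 for Slc22a8, both on the plus strand, with capitals marking a half-site of the HNF1 factors.
Slc22a6: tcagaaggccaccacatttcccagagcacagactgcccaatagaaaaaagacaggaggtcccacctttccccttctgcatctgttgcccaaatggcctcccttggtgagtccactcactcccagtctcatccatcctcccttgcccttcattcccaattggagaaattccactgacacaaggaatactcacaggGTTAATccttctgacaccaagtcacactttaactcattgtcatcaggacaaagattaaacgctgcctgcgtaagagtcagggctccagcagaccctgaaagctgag
Slc22a8: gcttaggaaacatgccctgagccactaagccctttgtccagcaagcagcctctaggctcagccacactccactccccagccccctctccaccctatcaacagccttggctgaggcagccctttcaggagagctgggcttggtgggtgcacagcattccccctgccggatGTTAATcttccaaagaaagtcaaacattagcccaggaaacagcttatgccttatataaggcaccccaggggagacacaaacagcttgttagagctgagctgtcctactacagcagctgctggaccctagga

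The half-site was searched as GTTAAT, or ATTAAC for the other strand. Its first base lies 56 bases before the start site in Slc22a6 (position -56) and 81 bases before it in Slc22a8 (position -81). The other 6 members with an entry lack these letters, and 7.1% of 32851 promoters hold them. An HNF4 core, AAAGTCC or GGACTTT, was in none of the 8 entries and in 4.21% of all promoters. An androgen receptor half-site, AGAACA or TGTTCT, was found in Slco4c1 at position -230 on the opposite strand, and in 19% of all promoters. Slco4c1 was the member with the lowest level per kilobase of gene length in every group. Its promoter lies at chr1:96872122-96872421 on the minus strand, with capitals marking that half-site. A match describes the letters and shows no binding.
Slco4c1: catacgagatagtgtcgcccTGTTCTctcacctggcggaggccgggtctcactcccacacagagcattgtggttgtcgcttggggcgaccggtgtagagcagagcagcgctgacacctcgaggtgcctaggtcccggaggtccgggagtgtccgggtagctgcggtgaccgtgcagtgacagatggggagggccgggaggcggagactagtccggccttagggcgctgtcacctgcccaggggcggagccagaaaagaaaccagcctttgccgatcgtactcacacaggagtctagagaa

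The comparison of Model with Ctrl asked which transcripts differ between diabetic and non-diabetic kidneys. In the edgeR test across all genes, Slc22a2, Slc47a1, Slc22a12 and Slco4c1 were lower in Model mice at an adjusted P under 0.05, which is 4 of 9 members against 18.5% of all genes called lower. Slc22a8 was higher, which is 1 of 9 members against 19.6% of all genes called higher. In either direction 5 of 9 members passed, beside 38% of all genes, a number of calls that does not set the members apart. CPM of the groups did not overlap for 4 of 9 members, Slc22a2, Slc22a6, Slc22a12 and Slco4c1, beside 40.2% of all genes. The median log2 difference was -0.72 over the 9 members and 0.038 over all genes tested. In bulk tissue fewer proximal tubule cells and less RNA of a gene per cell cannot be told apart. These directions are relative to the bulk of all genes. Scaled instead to the 10 markers of all proximal tubule segments, an alternative chosen after seeing the data, 6 members were called higher and 0 lower. Of all 17431 genes, 13111 were called higher and 152 lower in that setting. With library size alone 0 members were called higher and 7 lower, beside 1547 and 5670 of all 17431 genes.

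Among the anion uptake carriers, Slc22a6 stood at 768, 946, 688 and 609 CPM in Ctrl 1 to 4 and at 579, 413, 490 and 334 CPM in Model 1 to 4. Every Model mouse was below every Ctrl mouse, with Model 1 the nearest to Ctrl 4. The log2 difference of -0.73 ± 0.30 (SE, n = 4 and 4) had an adjusted P of 0.0633 in edgeR and an exact permutation P of 0.0286, the smallest that 4 against 4 mice can give. Slc22a6 thus missed the threshold of the test across all genes. It was called lower in 6 of 19 alternatives, among them DESeq2 (adjusted P 0.0293) and edgeR without Ctrl 4 (0.0432) or Model 1 (0.0287), and it was called higher when scaled to the proximal tubule markers (0.59, adjusted P 0.0201). Over all 19 the adjusted P ran from 0.00301 to 0.204.

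Slc22a8, its neighbour, read 221, 263, 189 and 176 CPM in Ctrl and 673, 474, 495 and 216 CPM in Model. Model 1 to 3 were far above all Ctrl mice, while Model 4 lay inside the Ctrl range. The mean was 2.19 times that of Ctrl, a log2 difference of 1.13 ± 0.35 (SE) with an adjusted P of 0.0195 in edgeR and an exact permutation P of 0.0857. The edgeR call rested on single libraries: the adjusted P was 0.0592 without Ctrl 3, 0.0585 without Ctrl 4 and 0.0741 without Model 1. It was 0.0869 with library size alone and 0.0774 without the 3 mice furthest from their groups in mitochondrial share (Ctrl 2, Model 1 and YHY 2). The sign stayed positive in all 19 alternatives.

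Slco4c1, the scarcest member per kilobase of gene length, stood at 27.8, 27.3, 45.8 and 27.3 CPM in Ctrl. In Model it read 14.6, 14.5, 10.1 and 15.0 CPM. All Model mice lay below all Ctrl mice. Its level fell by 1.24 ± 0.21 on the log2 scale (SE; adjusted P 0.000353 in edgeR, exact permutation P 0.0286), but scaled to the proximal tubule markers the difference was 0.091 (adjusted P 0.747). An antisense long non-coding RNA, Panct2, overlaps Slco4c1 and had 20 to 253 counts per library, beside 221 to 1871 for Slco4c1.

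The cation pathway was lower at both of its steps. Slc22a2, the uptake carrier, stood at 326, 402, 330 and 226 CPM in Ctrl and at 168, 91.8, 111 and 110 CPM in Model, with no overlap. It was 2.67-fold lower in Model, a log2 difference of -1.42 ± 0.26 (SE; adjusted P 0.000501 in edgeR, exact permutation P 0.0286), whereas relative to the proximal tubule markers it was -0.086 with an adjusted P of 0.703. Slc47a1, the efflux step, read 475, 499, 438 and 253 CPM in Ctrl and 270, 268, 257 and 216 CPM in Model. Ctrl 4 lay inside the Model range, and the other 3 Ctrl mice lay above all Model mice. The log2 difference was -0.72 ± 0.24 (SE) with an adjusted P of 0.0289 in edgeR and an exact permutation P of 0.114, and it turned to 0.62 (adjusted P 0.00732) when scaled to the proximal tubule markers. The Slc47a1 call was lost without Ctrl 1 (0.0545), Ctrl 2 (0.0773), Model 2 (0.0541), Model 3 (0.0608) or Model 4 (0.0829), with library size without mitochondrial transcripts (0.139), with a replicate block (0.0517) and without the 3 mice furthest from their groups in mitochondrial share (0.0624); values are adjusted P in edgeR.

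Slc22a12, the urate transporter, stood at 803, 879, 729 and 667 CPM in Ctrl and at 368, 328, 304 and 281 CPM in Model. These groups were far apart and each was tight, with SDs of 91.8 and 37.3 CPM. The level fell by 1.27 ± 0.24 on the log2 scale (SE; adjusted P 0.000747 in edgeR, exact permutation P 0.0286), and relative to the proximal tubule markers the difference was 0.058 (adjusted P 0.81). Nrxn2 overlaps it on the opposite strand with 96 to 450 counts per library, against 3052 to 33480 for Slc22a12.

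The remaining 3 members did not pass the edgeR test. Slc22a4 ranged from 19.6 to 29.8 CPM in Ctrl and from 20.8 to 28.1 CPM in Model, with a log2 difference of -0.023 and a 95% interval of -0.41 to 0.36 (adjusted P 0.936, edgeR). Slc22a5 ranged from 84.1 to 124 CPM and from 86.1 to 98.0 CPM, and Abcc2 from 110 to 155 CPM and from 94.3 to 112 CPM. Their log2 differences were -0.21 (interval -0.70 to 0.28; adjusted P 0.496, edgeR) and -0.31 (interval -0.85 to 0.23; adjusted P 0.353, edgeR). All 3 signs depended on the scaling: without mitochondrial transcripts the differences were 0.31, 0.12 and 0.021, and relative to the proximal tubule markers 1.30, 1.1205 and 1.02.

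**Figure D2:**
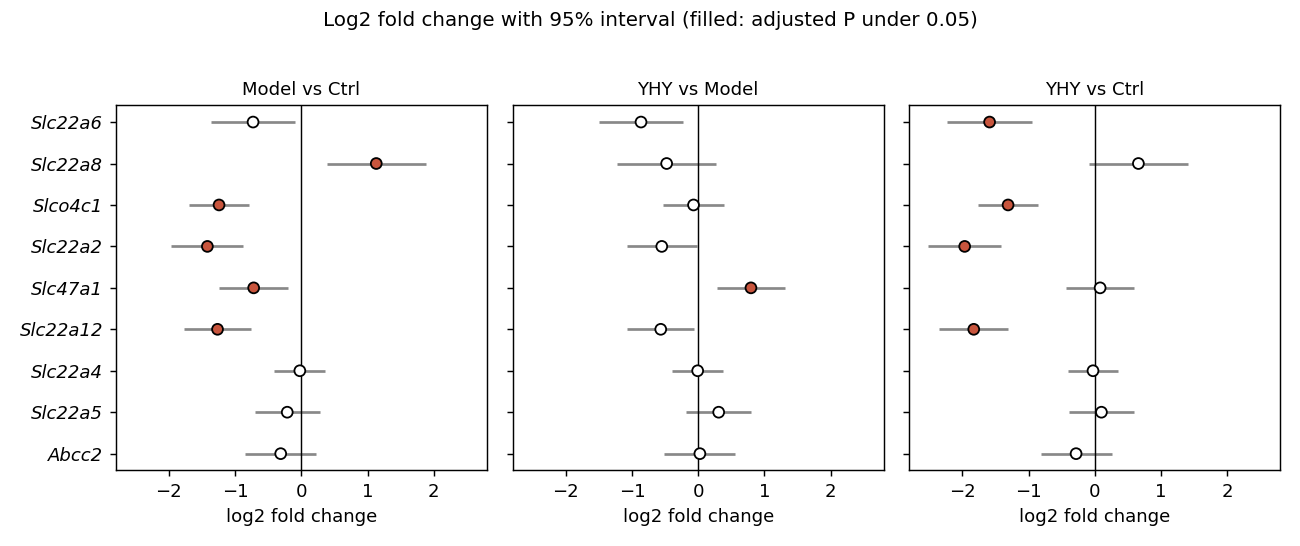
Log2 fold change of each transporter (horizontal axis) in the 3 comparisons, with 95% intervals from the edgeR fit; filled points have an adjusted P under 0.05. Slc22a8 is the member called higher in Model vs Ctrl (1.13) and Slc47a1 the member called higher in YHY vs Model (0.80); scaled to the proximal tubule markers, the called decreases in Model vs Ctrl are near 0 or turn positive.

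The comparison of YHY with Model asked which transcripts differ between db/db mice given the decoction and those given water. Slc47a1 was higher in YHY, the only member called by edgeR, which is 1 of 9 members against 5.63% of all genes called higher and 13.3% called in either direction. In the other direction 0 of 9 members were called, against 7.62% of all genes; 3 were lower at an unadjusted P under 0.05, and DESeq2 called 1. The study's own limits, an unadjusted P under 0.05 together with more than a 1.2-fold change, also gave 3 lower members, Slc22a2, Slc22a6 and Slc22a12, against 14.7% of all genes. CPM did not overlap for 1 of 9 members, Slc47a1, beside 16.1% of all genes. Median log2 differences were -0.070 over the members and 0.022 over all genes. Scaled to the proximal tubule markers 4 members were called higher, Slc47a1, Slc22a5 (0.89), Slc22a4 (0.68) and Abcc2 (0.60). Of all 17431 genes, 6761 were called higher and 169 lower in that setting.

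Slc47a1 stood at 281, 478, 372 and 625 CPM in YHY 1 to 4, each above the highest Model mouse at 270 CPM. YHY 1 cleared it by the least and YHY 4 was also above every Ctrl mouse. The level rose by 0.80 ± 0.24 on the log2 scale (SE), 1.74 times the Model mean, with an adjusted P of 0.0413 in edgeR and an exact permutation P of 0.0286. The sign was positive in all 19 alternatives and the call was lost in 10 of them. Without single mice the adjusted P in edgeR was 0.0649 (Model 1), 0.0736 (Model 2), 0.1 (Model 3), 0.105 (Model 4), 0.0848 (YHY 2) and 0.103 (YHY 4). It was 0.0762 with a replicate block, 0.0544 with library size alone, 0.111 in the 9 mice behind the authors' group means (Ctrl 1, 3 and 4, Model 2, 3 and 4 and YHY 1, 2 and 3) and 0.103 without the 3 mice furthest from their groups in mitochondrial share.

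Slc22a2, the uptake partner of Slc47a1, stood at 65.1, 110, 51.9 and 101 CPM in YHY. YHY 1 and YHY 3 lay below all Model mice, and YHY 2 and YHY 4 lay inside the Model range. The log2 difference was -0.55 ± 0.25 (SE), with an adjusted P of 0.162 in edgeR and an exact permutation P of 0.143. The sign turned to 0.065 when scaled to the proximal tubule markers.

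Slc22a6 read 184, 350, 116 and 349 CPM in YHY, and Slc22a8 read 221, 371, 167 and 578 CPM. In both genes YHY 1 and YHY 3 were low and YHY 2 and YHY 4 high. The summed inner medulla and thin limb markers stood at 586, 308, 673 and 280 CPM in YHY 1 to 4. Their part in this split was not tested. For Slc22a6 the log2 difference from Model was -0.86 ± 0.30 (SE; adjusted P 0.0667 in edgeR, exact permutation P 0.0857). The adjusted P for Slc22a6 was 0.0226 in DESeq2, 0.043 with library size alone, 0.0118 with no filter, 0.0433 without YHY 2 and 0.0288 without YHY 4, and reached 0.287 among the 19 alternatives. For Slc22a8 the log2 difference was -0.48 ± 0.35 (SE; adjusted P 0.4 in edgeR, exact permutation P 0.371) and 0.086 relative to the proximal tubule markers.

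Slc22a12 stood at 126, 169, 242 and 329 CPM in YHY. YHY 1, YHY 2 and YHY 3 were below all Model mice and YHY 4 was inside the Model range. The log2 difference was -0.56 ± 0.24 (SE; adjusted P 0.129 in edgeR, exact permutation P 0.114) and turned to 0.063 relative to the proximal tubule markers. The adjusted P was 0.0153 without YHY 4 and 0.0388 in the 9 mice behind the authors' group means.

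In YHY mice Slc22a5, the carnitine carrier, ranged from 65.7 to 171 CPM and Abcc2, the anion pump, from 59.1 to 186 CPM, with YHY 1 lowest and YHY 4 highest in both. Slc22a4 ranged from 19.4 to 32.2 CPM and Slco4c1 from 9.71 to 17.3 CPM. Log2 differences from Model were 0.31 for Slc22a5 (adjusted P 0.406), 0.026 for Abcc2 (0.965), -0.0074 for Slc22a4 (0.988) and -0.070 for Slco4c1 (0.876) in edgeR. The signs for Slc22a4, Slco4c1 and Abcc2 changed with the scaling or the mice used.

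The comparison of YHY with Ctrl shares its mice with the comparisons above. Slc22a2, Slc22a6, Slc22a12 and Slco4c1 were lower in YHY than in Ctrl by the edgeR test, which is 4 of 9 members against 24.2% of all genes called lower and 50.3% called in either direction. Called higher were 0 of 9 members, against 26.1% of all genes; 0 were higher at an unadjusted P under 0.05 and 0 in DESeq2. CPM did not overlap for the 4 members called, beside 44.6% of all genes. Median log2 differences were -0.29 over the members and 0.10 over all genes. With library size without mitochondrial transcripts, 4 of 9 members were called higher, beside 7426 of 16952 genes. Scaled to the proximal tubule markers 6 of 9 members were called higher and 0 lower, beside 15522 and 152 of all 17431 genes.

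Slc22a2 was 3.91-fold lower in YHY than in Ctrl, a log2 difference of -1.97 ± 0.26 (SE; adjusted P 1.72e-05, edgeR), and -0.021 relative to the proximal tubule markers. Slc22a12 differed by -1.83 ± 0.24 (adjusted P 1.88e-05), Slc22a6 by -1.59 ± 0.30 (adjusted P 0.000416) and Slco4c1 by -1.31 ± 0.21 (adjusted P 0.000114) in edgeR. Relative to the proximal tubule markers these were 0.12, 0.30 and 0.67. All 4 genes had exact permutation P values of 0.0286, and every YHY mouse lay below every Ctrl mouse. Slc47a1 averaged 439 ± 148 CPM in YHY and 416 ± 112 CPM in Ctrl (SD, n = 4 each), a log2 difference of 0.077 with an interval of -0.44 to 0.59 (adjusted P 0.812, edgeR). Its sign was negative with library size alone (-0.37), in the 9 mice behind the authors' group means (-0.091) and without Ctrl 4 (-0.17) or YHY 4 (-0.15). Slc47a1 was called higher without mitochondrial transcripts (0.53) and relative to the proximal tubule markers (2.02). Slc22a8 was at 0.66 ± 0.35 (SE; adjusted P 0.133, edgeR), and 1.09 (adjusted P 0.00647) without mitochondrial transcripts.

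Counts of a pair of genes in the same library can be divided without any scaling between libraries. The pairs were chosen after their values were seen, from the roles of the genes, so the ratios are a description without a test. Counts of Slc22a6 over counts of Slc22a8 gave 3.48, 3.59, 3.64 and 3.46 in Ctrl 1 to 4, a spread of 0.0881 (SD) around a mean of 3.54. In Model 1 to 4 the ratio was 0.860, 0.870, 0.991 and 1.55, and in YHY 1 to 4 it was 0.831, 0.945, 0.697 and 0.604. Every db/db mouse was below every Ctrl mouse.

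Counts of Slc47a1 over counts of Slc22a2, efflux over uptake of cations, gave 1.46, 1.24, 1.32 and 1.119 in Ctrl. They gave 1.61, 2.92, 2.32 and 1.95 in Model and 4.31, 4.34, 7.16 and 6.17 in YHY. The 3 groups did not overlap at all, with means of 1.29 ± 0.142, 2.201 ± 0.560 and 5.49 ± 1.41 (SD, n = 4 each). For Slc22a5 over Slc22a4 the means were 4.33 ± 0.253, 3.83 ± 0.388 and 4.99 ± 2.67, with overlapping groups. YHY 4, at 8.84, was the highest.

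**Figure D3:**
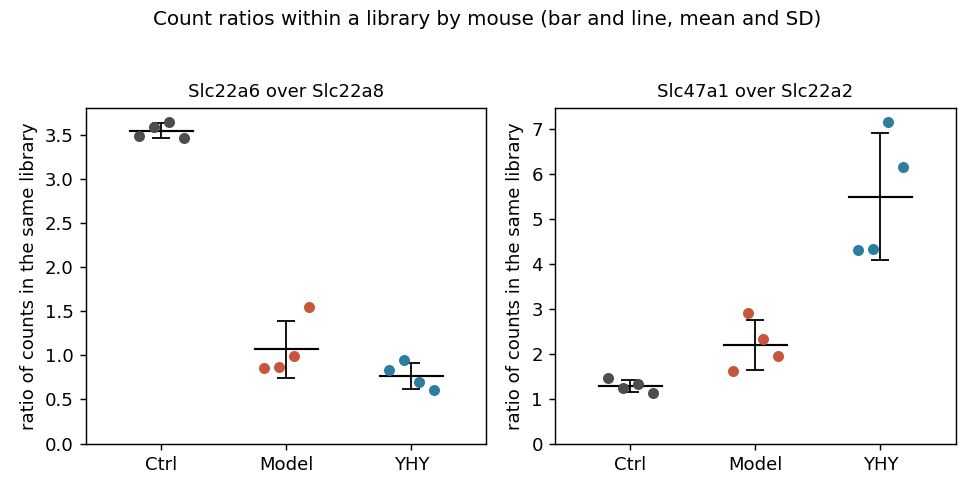
Ratio of counts of a pair of transporter genes in the same library (vertical axis) for each mouse, with mean and SD of 4 mice. Slc22a6 over Slc22a8 lies between 3.46 and 3.64 in Ctrl and at or below 1.55 in db/db mice, and Slc47a1 over Slc22a2 separates the 3 groups.

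Within groups the members varied together to different degrees. After removal of the group means, log2 CPM of Slc22a6 and Slc22a8 had a Pearson r of 0.90 over the 12 mice, and 0.16 with the group means kept. Slc22a12 and Abcc2 had 0.92 within groups, Slc22a5 and Abcc2 0.91, and Slc22a2 and Slc22a6 0.89. The lowest within-group value was -0.39 for Slc22a4 and Slc22a12. These values share libraries and scaling and are a description only. With the mitochondrial share, within groups, r ran from -0.22 for Slc22a12 to 0.52 for Slc22a4.

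Levels of proximal tubule markers were set beside those of the transporters. Of 10 markers of all its segments, 9 fell in Model mice (median log2 difference -1.13), with Kap at -3.06, Acsm2 at -2.19 and Keg1 at -2.05. Scaled to these markers themselves the median was 0.17. Kap encodes an androgen-regulated kidney protein, Acsm2 a medium-chain acyl-CoA ligase and Keg1 a glycine acyltransferase-like enzyme. The 5 markers of the late segment all fell (median -1.54, and -0.20 relative to the markers of all segments), with Cyp7b1 at -5.68, Slc7a13 at -2.33 and Atp11a at -1.54. Their summed level was 2342, 2069, 2204 and 1452 CPM in Ctrl, 446, 409, 527 and 601 CPM in Model and 404, 497, 286 and 313 CPM in YHY, with Atp11a the most abundant over the 12 mice and no marker at 0. Of the 5 early-segment markers none passed in edgeR, at an unadjusted P under 0.05 or in DESeq2 (0 in each direction, median 0.42). Relative to the markers of all segments 3 were called higher, with a median of 1.78. Over all 17431 genes 13111 were called higher in that setting, with a median of 1.35. In YHY against Model, 2 of the 10 general markers fell, Fbp1 at -1.09 and Keg1 at -0.86. Gatm fell among the early markers (-1.92), and among the late markers Slc7a13 fell (-1.11) and Cyp7b1 rose (0.62). The call of Cyp7b1 was lost with library size alone, and that of Slc7a13 relative to the markers of all segments (-0.49). How far the markers account for the transporters was not tested.

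**Figure D4:**
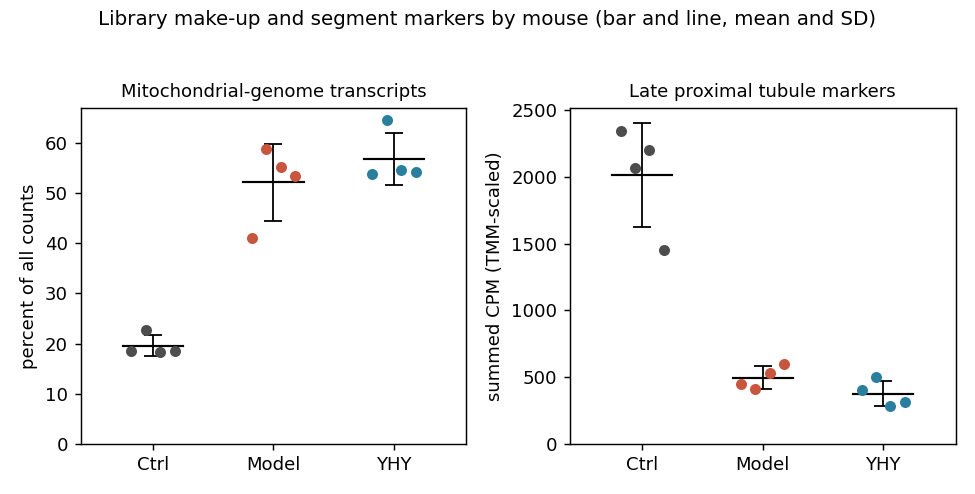
Share of counts from the mitochondrial genome (left, percent) and summed level of the 5 late proximal tubule markers (right, CPM after TMM scaling) in each mouse, with mean and SD of 4 mice. In the 8 db/db libraries the share was at least 41.2% and the summed level at most 601 CPM, against at most 22.7% and at least 1452 CPM in Ctrl.

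Set against the geometric mean of the 10 general markers in the same library, the members moved by different amounts. The marker level itself was 10.46 ± 0.18, 9.14 ± 0.11 and 8.49 ± 0.43 on the log2 CPM scale in Ctrl, Model and YHY (SD, n = 4 each). From Ctrl to Model, Slc22a2 (-0.10), Slc22a12 (0.056) and Slco4c1 (0.099) changed least. Slc22a6 (0.58) and Slc47a1 (0.64) were higher relative to them, and Abcc2 (1.02), Slc22a5 (1.13), Slc22a4 (1.31) and Slc22a8 (2.36) higher still; values are differences of mean log2 levels. From Model to YHY the differences were 1.40 for Slc47a1, 0.88 for Slc22a5, 0.63 for Slc22a4, 0.58 for Slco4c1, 0.56 for Abcc2, 0.13 for Slc22a8, 0.077 for Slc22a2, 0.0055 for Slc22a12 and -0.32 for Slc22a6. This measure was chosen after seeing the data.

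Some other transporter genes differed more than any of the 9 members in Model against Ctrl. Over all 17431 genes tested, 19.6% were called higher and 18.5% lower in edgeR. Relative to the proximal tubule markers 13111 of them were called higher and 152 lower, with a median log2 difference of 1.35. Of 17 other genes tested of the SLC22 and MATE families and Slc29a4, counted together, 7 fell and 2 rose in edgeR. Their median log2 difference was -0.36, and 0.98 relative to the proximal tubule markers, where 12 were called higher and 4 lower. Slc22a7 (OAT2) fell by 6.46, from 279 to 3.15 CPM, Slc22a26 fell by 5.27 and Slc22a19 (OAT5) fell by 4.03. Of 6 other OATP genes tested, 3 fell and 2 rose. Their median was -0.72, and 0.60 relative to the markers, where 3 were called higher and 1 lower. Slco1a1, an organic anion carrier of the brush border, fell by 7.05, from 322 to 2.41 CPM, and Slco1a6 fell by 1.59, while Slco2b1 rose by 1.03. Of 9 other ABC pumps, 5 rose and 1 fell (median 1.26), and relative to the markers 8 rose and 0 fell (median 2.52), with Abcc3, a basolateral pump of conjugated anions, at 2.61, Abcb1b at 1.43 and Abcc10 at 1.36 before that scaling.

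Among 12 carriers and enzymes of dicarboxylates, urate and monocarboxylates, 3 fell and 1 rose (median -0.36, and 0.98 relative to the markers), with Slc17a1 at -1.88, Slc5a8 at -1.38 and Slc17a3 at -1.26. Slc17a1 and Slc17a3 carry urate and other anions out of the cell at the brush border, and Slc5a8 takes up monocarboxylates with sodium. Among 5 PDZ scaffold genes, Pdzk1 (-1.87) and Slc9a3r1 (-0.75) fell; the median of -0.26 turned to 0.060 without mitochondrial transcripts and to 1.05 relative to the markers. Pdzk1 anchors URAT1 and other carriers beneath the brush border. Of 8 genes of carnitine synthesis and shuttle tested, 3 fell, Crot (-2.01), Aldh9a1 (-0.76) and Crat (-0.44); the median was -0.43, and 0.89 relative to the markers. Of 14 transcription factors of transporter genes, 5 fell and 2 rose (median -0.39, and 0.90 relative to the markers), among them the nuclear receptors Nr1i2 (1.83) and Nr1h4 (1.32), and Bcl6 (-1.41). Relative to the markers, the 12 carriers and enzymes had 7 genes called higher and 1 lower, and the scaffolds 4 and 1. The carnitine genes had 6 and 1, and the transcription factors 10 and 0. All 17431 genes had 13111 and 152, with a median of 1.35. In the main fit 19.6% of all genes were called higher and 18.5% lower.

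In YHY against Model fewer genes of these lists passed, beside 5.63% of all genes called higher and 7.62% called lower. Of the 17 other genes of the SLC22 and MATE families and Slc29a4, 3 fell and 0 rose, among them Slc22a22 (-1.83) and Slc22a28 (-1.62). Their list median of -0.33 turned to 0.33 relative to the markers. Of the 5 scaffold genes 3 fell, Slc9a3r1 (-0.98), Pdzk1 (-0.83) and Pdzk1ip1 (-0.80), with a median of -0.80, and -0.14 relative to the markers. Abcc10 (1.16) and Abcc1 (0.69) rose among the ABC pumps, and Xdh (0.96), which makes urate, and Slc13a2 (0.75), a dicarboxylate carrier, rose among the partners. Hnf4a, a factor of proximal tubule genes, fell by 0.94, and Nfe2l2, which controls detoxification genes, rose by 0.72; the call of Hnf4a was lost relative to the markers (-0.34) and that of Nfe2l2 with library size alone. Calls relative to the markers were 0 lower and 1 higher among the scaffolds, 0 lower and 4 higher among the ABC pumps and 0 lower and 4 higher among the partners, and with library size alone 1 ABC pump was higher. Of the 6 OATP genes 0 passed in edgeR, with 1 lower at an unadjusted P under 0.05 and 1 lower in DESeq2. Of the 8 carnitine genes 0 passed in edgeR, at an unadjusted P under 0.05 or in DESeq2. Relative to the markers, 2 OATP genes, 4 carnitine genes and 6 transcription factors were called higher, and 0 lower. That scaling called 6761 of all 17431 genes higher and 169 lower, with a median of 0.71.

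**Figure D5:**
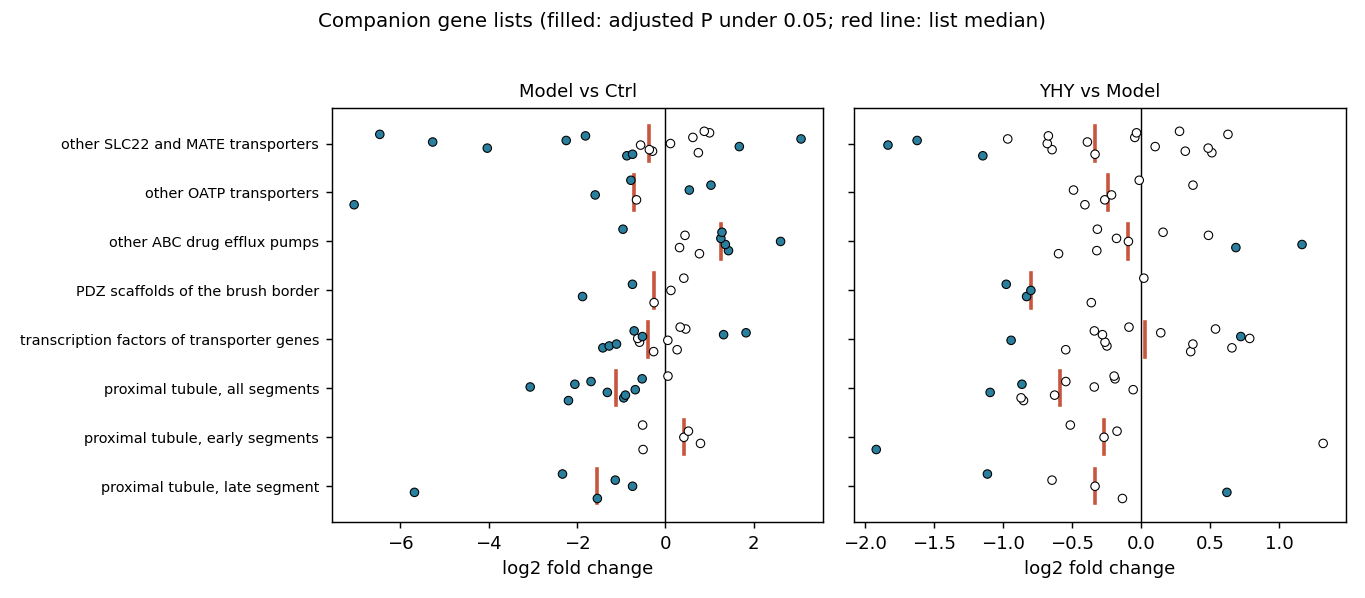
Log2 fold change (horizontal axis) of each tested gene in 8 companion lists, for Model vs Ctrl and YHY vs Model; filled points have an adjusted P under 0.05 in edgeR and the red line is the list median. In Model vs Ctrl the ABC pumps have a median of 1.26 and the late proximal tubule markers of -1.54. Relative to the markers of all segments these are 2.52 and -0.20, and the median over all genes is 1.35.

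Markers of other cell types also moved in Model mice, and their part in the transporter results was not tested. In the thick ascending limb 3 of 5 fell, Umod (-2.86), Cldn16 (-1.29) and Kcnj1 (-1.117). In the distal convoluted tubule 2 of 4 rose, Trpm6 (2.07) and Slc12a3 (1.33), and in the collecting duct 2 of 7 fell, Aqp3 (-1.72) and Aqp2 (-1.18). Aqp4 of the inner medulla fell (-2.43). Nphs1 (1.86) and Synpo (0.53) rose among 5 podocyte markers, Ehd3 (0.72) among 5 endothelial markers and Pdgfrb (0.51) among 5 of fibroblasts and mural cells. Of 7 macrophage and leukocyte markers 3 fell and 1 rose, with C1qc at -1.62, C1qa at -1.08 and Cd68 at 1.05. With library size alone the calls of Ehd3, Pdgfrb and Cd68 were lost. In that setting 1 podocyte marker was called higher, with Nphs1 at 1.44 and Synpo at 0.11. Of 6 tubular injury genes 2 fell, Havcr1 (-4.84) and Clu (-1.49). In YHY against Model, Pvalb (-1.59) and Atp6v1g3 (-1.13) fell and Lcn2 (2.06) rose. The call of Lcn2 was lost with library size alone, and that of Atp6v1g3 relative to the proximal tubule markers (-0.38). In that comparison the thick ascending limb, podocyte, endothelial, macrophage and fibroblast lists had 0 genes called in edgeR. At an unadjusted P under 0.05 they had 1, 2, 1, 2 and 1, and in DESeq2 1, 0, 1, 0 and 0. In the same order, 2, 2, 3, 6 and 3 genes were called higher and 0 lower when scaled to the proximal tubule markers. That setting called 6761 of all 17431 genes higher and 169 lower. Scaled to the proximal tubule markers, the list medians of the thick ascending limb (0.14), collecting duct (1.14), macrophage (1.122) and injury (0.70) genes in Model vs Ctrl were positive instead of negative. The median over all genes was then 1.35.

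The genes whose log2 CPM followed each member most closely over the 12 mice were sought among 12853 genes. Slc22a12 followed Tmem169 (Pearson r 0.99), Lrp2 (0.99) and Dhrs4 (0.99). Lrp2 encodes megalin, the endocytic receptor of the proximal tubule. Slc22a6 followed Acp5 (0.99), Enpp6 (0.99) and Akr1c21 (0.98), and Slc22a2 followed Eci3 (0.99), Them7 (0.98) and Ces1f (0.98). Slco4c1 followed Itih2 (0.97), Nck2 (0.96) and Spats2l (0.95), and Abcc2 followed Slc13a1 (0.94), Acot4 (0.94) and 9130016M20Rik (0.92). The closest values were lower for Slc22a8 with Alpl (0.91), Rpl28-ps1 (0.90) and Pdk2 (0.90), for Slc47a1 with Lgals8 (0.90), Stau1 (0.89) and Irak2 (0.89), for Slc22a5 with Grpel2 (0.89), Tdp2 (0.88) and Gpam (0.88), and for Slc22a4 with Tpgs2 (0.88), Tent5a (0.82) and Col3a1 (0.81). The mice fall into 3 groups, so these values describe likeness across groups and say nothing of shared function or control.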

How the data were processed

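PolyA RNA of 12 kidneys was sequenced, and the count of reads per gene in each library is the value the authors deposited. Per the submitters' processing notes, reads were checked with FastQC 0.11.9, trimmed with Trimmomatic 0.39, aligned to GRCm39 with HISAT2 2.2.1 and counted with featureCounts 2.0.1; the strand setting of the counting is not given in the sources used here. The deposited comparison and pathway tables hold the authors' own fold changes and p-values and gave no value used here, nor did their 12 value columns per mouse, which hold only part of the mice. An alternative fit uses the 9 mice that an earlier look at these files found behind the authors' group means (Ctrl 1, 3 and 4, Model 2, 3 and 4 and YHY 1, 2 and 3); that choice was fixed before the counts were read and was not checked again. The table gives 480 genes a dash as a name, with 0.139% to 0.262% of the counts; they stayed in the library sizes.

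Counts of all 12 mice were fitted with edgeR 4.0.16 (R 4.3.3): TMM scaling, filterByExpr (17431 genes kept), a quasi-likelihood fit of the 3 groups, two-sided tests and Benjamini-Hochberg adjustment over all genes tested, with calls at an adjusted P under 0.05. For single genes, group labels of 4 against 4 mice were permuted exactly (two-sided), with no adjustment over the members. Log2 CPM used a pseudocount of 0.5. The test was tried on simulated counts first. Alternatives were DESeq2 1.42.0, other scalings and filters, fewer mice, a replicate block and the limits of the study, and, added after seeing the data, 9 mice without those furthest from their groups in mitochondrial share and a scaling to the proximal tubule markers.

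Named genes are all 9 members, at most 3 called genes with the largest log2 differences per list and comparison, and the 3 genes most alike each member among named genes averaging 50 counts or more. The members and lists were chosen with earlier results of these data known. Replicate numbers do not pair the mice: of 12 pairs with the same number, 2 had a correlation over 0.1 (range -0.21 to 0.17), and 3 of 12 mice correlated best with a mouse of their own number.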

Additional observations from a re-analysis of the deposited data

Results flagged for a closer look

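Of 30 groups of 4 mice checked for a mouse far from the others (27 groups of a member's CPM and 3 of the mitochondrial share), 4 held one; chance gives about 1 in 20 groups. Slco4c1 stood at 45.8 CPM in Ctrl 3, where the other Ctrl mice read 27.3 to 27.8 CPM, and at 10.1 CPM in Model 3, where the other Model mice read 14.5 to 15.0 CPM. Transcripts of the mitochondrial genome took 22.7% of the counts in Ctrl 2, where the other Ctrl mice had 18.4% to 18.6%, and 64.6% in YHY 2, where the other YHY mice had 53.8% to 54.6%. The causes were not tested.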

How the results depend on the processing

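In Model vs Ctrl, Slc22a2, Slc22a12 and Slco4c1 kept their sign and their call in 18 of 19 alternatives, and the exception was the scaling to the proximal tubule markers. Slc22a8 kept its sign in all 19 and its call in 14, with adjusted P from 7.47e-07 to 0.0869. In YHY vs Ctrl, Slc22a2, Slc22a6, Slc22a12 and Slco4c1 likewise kept sign and call in 18 of 19, with the same exception. Slc47a1 in YHY vs Model kept its sign in all 19 and its call in 9, with adjusted P from 0.000187 to 0.111. Unless a construction is named, the cause of a difference between settings was not tested.

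Scaling moved the median log2 difference of all genes. In Model vs Ctrl the shift was -0.43 with library size alone, 0.33 with library size without mitochondrial transcripts, 0.10 with upper-quartile scaling and 1.31 with the scaling to the proximal tubule markers, by construction of the latter. In YHY vs Model it was 0.14 without mitochondrial transcripts and 0.69 with the markers, and in YHY vs Ctrl -0.43, 0.47, 0.12 and 2.00 in the order of the first list. The share of called genes that were higher, 51.5% in Model vs Ctrl, became 21.4% (library size alone), 77.7% (without mitochondrial transcripts) and 98.9% (markers). In YHY vs Model it went from 42.5% to 64.4% and 97.6% in the latter settings, and in YHY vs Ctrl from 51.9% to 28.3%, 77.6% and 99%.

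In numbers of genes, Model vs Ctrl had 3412 higher and 3219 lower, 1547 and 5670 with library size alone, 5575 and 1601 without mitochondrial transcripts, and 13111 and 152 with the markers. YHY vs Model had 982 and 1329, 491 and 687 with library size alone, 1513 and 838 without mitochondrial transcripts, 692 lower with only the 8 mice compared, 2429 and 2559 by the limits of the study, 639 and 858 without the 3 mice furthest from their groups in mitochondrial share, and 6761 and 169 with the markers. YHY vs Ctrl had 4547 and 4215, 2365 higher with library size alone, 7426 and 2145 without mitochondrial transcripts, and 15522 and 152 with the markers. Without single mice, the YHY vs Model counts ran from 419 to 1043 higher and from 727 to 1678 lower.

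Library size alone gave 0 members higher and 7 lower in Model vs Ctrl, and 0 higher and 1 lower in YHY vs Model; in YHY vs Ctrl the log2 differences of Slc22a5 and Slc47a1 turned to -0.36 and -0.37. Library size without mitochondrial transcripts turned Slc22a4 to 0.31, Slc22a5 to 0.12 and Abcc2 to 0.021 in Model vs Ctrl. It turned Slc22a4 to 0.14 and Slco4c1 to 0.060 in YHY vs Model, and in YHY vs Ctrl it gave 4 members higher, with Slc22a4 at 0.445 and Abcc2 at 0.155. Upper-quartile scaling turned Slc22a4 to 0.078, 0.011 and 0.089 in Model vs Ctrl, YHY vs Model and YHY vs Ctrl. With at least 10 counts in every mouse Slc22a4 was 0.021, 0.0078 and 0.028 in these comparisons. DESeq2 gave 1 member lower in YHY vs Model and Slc22a4 at 0.0013, no filter gave 1 lower, the limits of the study gave 3 lower, and only the 8 mice compared gave Slc22a4 at 0.045.

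The 9 mice behind the authors' group means (Ctrl 1, 3 and 4, Model 2, 3 and 4 and YHY 1, 2 and 3) gave 0 members higher and 1 lower in YHY vs Model, with Slc22a4 at 0.055 and Abcc2 at -0.34. In YHY vs Ctrl they gave Slc22a4 at 0.029, Slc22a5 at -0.16 and Slc47a1 at -0.091. A replicate block gave 0 members higher in YHY vs Model and Abcc2 at -0.048, and the call of Slc47a1 in Model vs Ctrl was lost (adjusted P 0.0517). It changed no other call of a member. Added after seeing the data, the 9 mice without those furthest from their groups in mitochondrial share gave 0 members higher in Model vs Ctrl and in YHY vs Model.

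The scaling to the proximal tubule markers, also added after seeing the data, gave 6 members higher and 0 lower in Model vs Ctrl, 4 higher in YHY vs Model, and 6 higher and 0 lower in YHY vs Ctrl. In Model vs Ctrl the signs turned to 1.30 for Slc22a4, 1.1205 for Slc22a5, 0.59 for Slc22a6, 0.058 for Slc22a12, 0.62 for Slc47a1, 0.091 for Slco4c1 and 1.02 for Abcc2. In YHY vs Model they turned to 0.065 for Slc22a2, 0.68 for Slc22a4, 0.086 for Slc22a8, 0.063 for Slc22a12 and 0.58 for Slco4c1. In YHY vs Ctrl they turned to 1.99 for Slc22a4, 0.30 for Slc22a6, 0.12 for Slc22a12, 0.67 for Slco4c1 and 1.62 for Abcc2.

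Without single mice, members higher ran from 0 to 1 and members lower from 3 to 5 in Model vs Ctrl, from 0 to 1 and from 0 to 2 in YHY vs Model, and from 0 to 1 and from 4 to 5 in YHY vs Ctrl. The log2 difference of Slc22a4 ran from -0.17 to 0.038, from -0.19 to 0.077 and from -0.21 to 0.053 in these comparisons. In YHY vs Model that of Slco4c1 ran from -0.24 to 0.043 and that of Abcc2 from -0.38 to 0.23. In YHY vs Ctrl that of Slc22a5 ran from -0.18 to 0.28 and that of Slc47a1 from -0.17 to 0.24.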
